A study of Mus musculus with 21 samples.

Results

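Expression of the Myt1 zinc finger family was followed in the forebrain and kidney of mouse embryos at embryonic day 14.5. The family has 3 members, Myt1, Myt1l and St18, and they were taken by gene symbol from the 23827 rows that each expression file holds, with 1 row for each symbol. They were chosen by the high and variable RPKM of Myt1l in the brain endothelial libraries. For this reason the members are described without a test in those libraries, and the main tests of the members use comparisons without them. An alternative fit of all 21 libraries does hold them, so that their spread of Myt1l enters it. Reads were counted in 21 libraries of 7 groups with 3 replicates each, and 5 of the groups hold RNA that was pulled down with tagged ribosomes.

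All embryos were heterozygous for Gt(ROSA)26Sor-mCherry-Rpl10a, a Cre-dependent allele that makes mCherry-tagged ribosomal protein L10a from the CAGGS promoter once Cre has removed a stop cassette. The allele goes back to 1 targeted stem cell clone. Embryos of the genotype Sox2Cre+/-;Gt(ROSA)26Sor-mCherry-Rpl10a+/- have the tag in all cells of the embryo proper and gave the brain and kidney transcriptomes (total RNA) and the brain and kidney translatomes (RNA on tagged ribosomes). Embryos of the genotype Cdh5CreERT2+/-;Gt(ROSA)26Sor-mCherry-Rpl10a+/- received tamoxifen through the mother, have the tag in endothelial cells, and gave the brain EC and kidney EC translatomes. Embryos of the genotype Emx1Cre+/-;Gt(ROSA)26Sor-mCherry-Rpl10a+/- have the tag in the lineage of the dorsal telencephalon and gave the Emx1 translatome. Libraries were made from organs of 1 or more embryos, and a transcriptome and a translatome library with the same number came from the same tissue sample.

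The family consists of DNA-binding proteins with a zinc finger type of their own, CCHHC, which recognise a short AAGTT core. Myt1 and Myt1l are known from the developing nervous system, where they repress Notch targets and genes of other lineages through the Sin3 and histone deacetylase corepressors while progenitors become neurons. Myt1l is used with Pou3f2 and other factors to turn fibroblasts into neurons, and St18 shares the zinc fingers of both.

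Myt1 (NM_001171615 in the files) lies on chromosome 2 from 181763332 to 181827797, Myt1l (NM_001093778) on chromosome 12 from 29528384 to 29923213, and St18 (NM_001244693) on chromosome 1 from 6487231 to 6860940, all on the plus strand of GRCm38 and all protein coding. The 250 bases before the outermost annotated start of Myt1 and of Myt1l, taken from RefSeq on GRCm38.p6, are shown because the results below turn on Myt1l and on how it departs from Myt1. Capitals mark the AAGTT core and the general E-box CANNTG, which proneural factors such as the Neurogenins bind, on either strand.
Myt1, chr2:181763082-181763331, plus strand: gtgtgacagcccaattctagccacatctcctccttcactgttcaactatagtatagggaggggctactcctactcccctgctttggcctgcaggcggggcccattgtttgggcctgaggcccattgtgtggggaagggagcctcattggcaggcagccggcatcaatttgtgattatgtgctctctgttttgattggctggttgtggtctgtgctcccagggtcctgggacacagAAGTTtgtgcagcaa
Myt1l, chr12:29528134-29528383, plus strand: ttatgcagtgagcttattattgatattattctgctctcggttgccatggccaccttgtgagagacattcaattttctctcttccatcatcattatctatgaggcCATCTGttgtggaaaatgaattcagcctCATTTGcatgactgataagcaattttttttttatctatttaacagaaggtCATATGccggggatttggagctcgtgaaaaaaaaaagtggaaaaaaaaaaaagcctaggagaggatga
The Myt1 window holds 1 AAGTT and no CANNTG, while the Myt1l window holds 3 CANNTG and no AAGTT. Among 32851 windows of this length, 35.3% hold AAGTT and 66.2% hold CANNTG, so either match is common.

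Total counts ranged from 21760652 to 79231692 reads per library. The labels were checked against cell type markers, with a call at an adjusted p under 0.001. Against the brain translatome, 15 of 15 endothelial markers were higher in the brain EC translatome (median log2 fold change 4.50), where 24.8% of 19103 rows were called higher and 21.4% lower. In the Emx1 translatome 7 of 7 dorsal telencephalon markers were higher and 8 of 8 ventral telencephalon markers were lower than in the brain translatome. In the kidney EC translatome 14 of 15 endothelial markers were higher than in the kidney translatome, beside 16.7% of 18940 rows. The brain EC, kidney EC and Emx1 libraries were each sequenced in a run of their own, so that the run and the group cannot be told apart for them.

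In the total RNA of the forebrain, Myt1 and Myt1l were at nearly the same level and St18 was lower. Myt1 had 45.4, 43.1 and 41.9 RPKM (reads per kilobase of transcript, scaled to the mapped reads of the library) in replicates 1, 2 and 3 of the brain transcriptome. Myt1l had 40.6, 39.2 and 43.0 RPKM in the same libraries. St18 had 13.8, 11.7 and 12.0 RPKM. The replicates of Myt1 and Myt1l therefore overlapped in total RNA, and St18 lay below both in every library.

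On ribosomes the members came apart. In the brain translatome Myt1 was at 22.1, 21.3 and 19.5 RPKM. Myt1l was at 118, 97.7 and 94.8 RPKM. St18 was at 9.03, 9.45 and 8.99 RPKM. Every translatome library was below every transcriptome library for Myt1 and St18, and above every transcriptome library for Myt1l.

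The mean of Myt1 was 43.5 ± 1.78 RPKM in the brain transcriptome and 21.0 ± 1.34 RPKM in the brain translatome (SD, n = 3). This is a log2 fold change of -1.01 with a standard error of 0.06 (adjusted p = 2.75e-09, edgeR quasi-likelihood test). Myt1l moved the other way, from 40.9 ± 1.91 to 104 ± 13.0 RPKM (SD, n = 3), with a log2 fold change of 1.36 and a standard error of 0.08 (edgeR adjusted p = 4.86e-09). St18 fell from 12.5 ± 1.15 to 9.16 ± 0.257 RPKM (SD, n = 3), with a log2 fold change of -0.40 and a standard error of 0.07 (edgeR adjusted p = 0.000137). All 3 members were thus called, where 37.1% of the 19446 rows tested were called in either direction (18.6% higher and 18.5% lower) and the median log2 fold change of all rows was -0.01. The call of St18 was lost in 1 fit over all 21 libraries, the brain EC libraries included (-0.42, edgeR adjusted p = 4.15e-03).

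Brain transcriptome 1 was sequenced in the same run as the brain translatome libraries, while brain transcriptome 2 and 3 were in another run. Against brain transcriptome 1 alone, the log2 fold changes were -1.10 for Myt1, 1.36 for Myt1l and -0.56 for St18, each with the direction it had with all libraries. With the tissue sample as a block the values were -1.01, 1.36 and -0.39.

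Genes that work with the family were compared between ribosome-bound and total RNA as well. Of 9 proneural factors and partners, none was called higher and 2 were called lower, and the median log2 fold change was -0.03. The 2 were Pou3f2, a POU factor used beside Myt1l in reprogramming, which went from 27.2 to 18.3 RPKM, and Neurod1, which went from 28.3 to 21.5 RPKM. Of 6 corepressor partners, Sin3a (log2 fold change -0.68) and the histone demethylase Kdm1a (-0.38) were lower and the other 4 were not called. Of 11 genes of the Notch pathway 5 were lower, among them the receptors Notch1 (-1.33) and Notch2 (-1.22) and the effector Hes5 (-0.47), and none was higher. Neuron markers were called in both directions, with 5 of 15 higher, such as Gap43 (0.81), and 3 lower, such as L1cam (-0.84). The log2 fold change of Myt1l, 1.36, lay above that of every gene in these 4 lists.

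**Figure D1:**
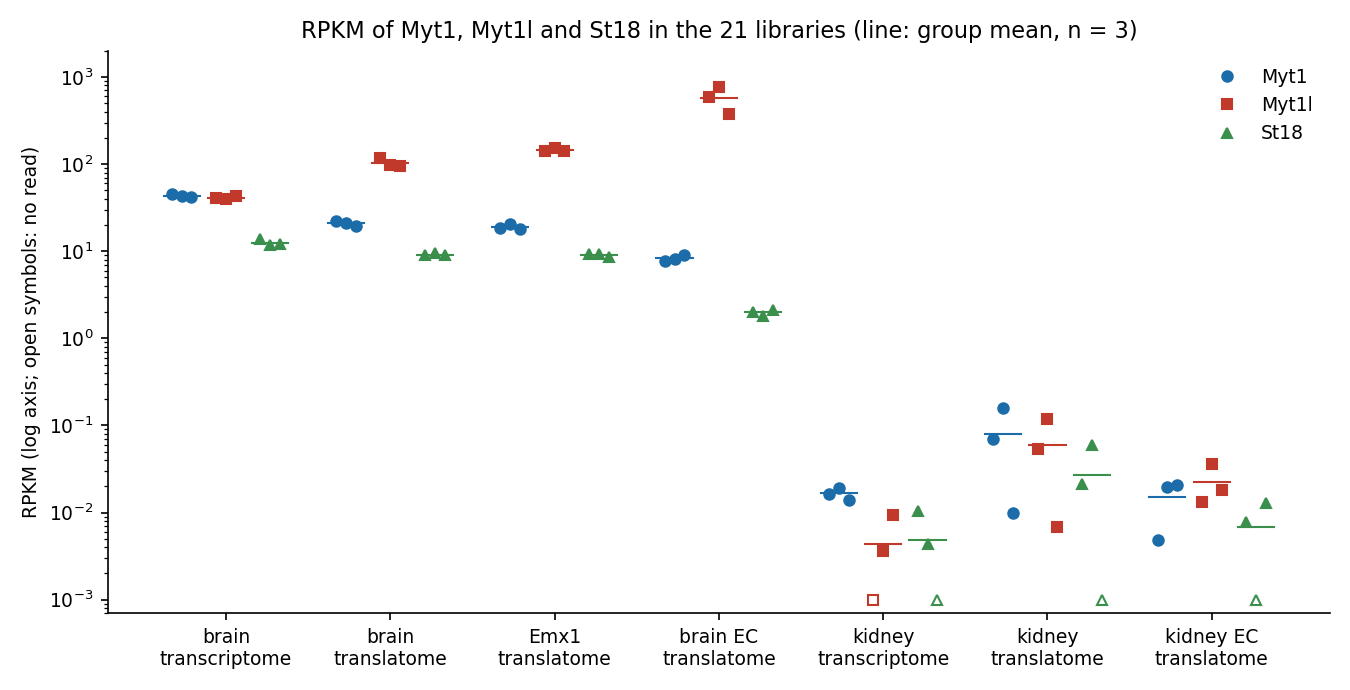
RPKM of Myt1 (circles), Myt1l (squares) and St18 (triangles) in each of the 21 libraries on a log axis, with replicates 1 to 3 from left to right and a line at the mean of each group. Open symbols mark libraries without a read. Myt1l is the highest member in the translatomes from brain and reaches 374 to 766 RPKM in the brain EC translatome, while Myt1 and St18 are lowest there among the brain groups, and no kidney library is above 0.158 RPKM.

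The Emx1 translatome, from the lineage of the dorsal telencephalon, set Myt1l apart from the other members again. Myt1l had 142, 153 and 142 RPKM, above every library of the brain translatome. Myt1 had 18.6, 20.6 and 18.1 RPKM and St18 had 9.17, 9.37 and 8.58 RPKM. For both of these the replicates overlapped with those of the brain translatome. In such bulk samples, fewer cells of a type and less RNA per cell cannot be told apart.

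The mean of Myt1l was 146 ± 6.49 RPKM (SD, n = 3) in the Emx1 translatome, with a log2 fold change of 0.54 and a standard error of 0.07 against the brain translatome (edgeR adjusted p = 1.58e-05). This call was lost in 1 fit over all 21 libraries, where the value was again 0.54 and the edgeR adjusted p = 1.80e-02. That fit takes in the brain EC libraries, by which the members were chosen, and their wide spread of Myt1l. Myt1 did not pass the test, with a log2 fold change of -0.09 and a standard error of 0.06 (edgeR adjusted p = 0.233). St18 did not pass it either, with a log2 fold change of 0.02 and a standard error of 0.05 (edgeR adjusted p = 0.723). One of the 3 members was thus called, and 22.1% of 19006 rows were called in this comparison (9.20% higher and 12.8% lower).

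Proneural factors were higher in the same comparison, with 7 of 9 called higher and a median log2 fold change of 0.73 beside 0.0028 for all rows. Neurod6, a factor of young cortical projection neurons, was at 483 ± 29.6 RPKM in the Emx1 translatome and 217 ± 8.36 RPKM in the brain translatome (SD, n = 3). Neurog2, which starts neurogenesis in the cortex, was at 122 ± 6.74 and 76.3 ± 3.26 RPKM. Pou3f2 (0.11) was among the 2 factors that were not called. Of the Notch genes 5 of 11 were higher, Hes1 (0.71) among them, and 2 were lower. Of the corepressors 3 of 6 were higher, Hdac1 (0.93), Kdm1a (0.35) and Sin3a (0.28). Among neuron markers 2 of 15 were higher, Rbfox3 (0.63) and Snap25 (0.48), and 5 were lower, with Nefl at -1.22.

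Compared with total brain RNA, which shares no run with it, the Emx1 translatome differed in the same directions as the brain translatome did. The log2 fold changes were -1.02 for Myt1 (standard error 0.05, edgeR adjusted p = 9.8e-11), 1.98 for Myt1l (0.05, edgeR adjusted p = 2.04e-13) and -0.30 for St18 (0.06, edgeR adjusted p = 0.00044). All 3 members were called beside 49.3% of 19471 rows. The call of St18 was lost without brain transcriptome 1 (-0.22, edgeR adjusted p = 1.26e-03) and without any 1 of the Emx1 libraries (-0.27 to -0.32). The brain transcriptome libraries are the same in both comparisons, so that the values are not independent of each other. The Emx1 translatome and total brain RNA differ in their cells as well as in ribosome binding. The shares of these differences cannot be told apart here.

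**Figure D2:**
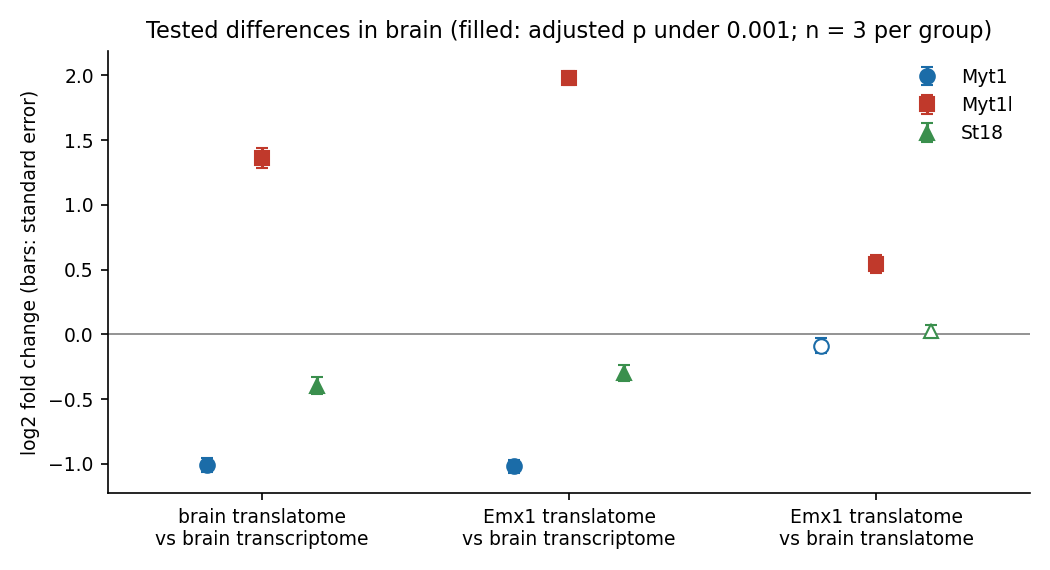
Log2 fold changes of Myt1 (circles), Myt1l (squares) and St18 (triangles) in the tested comparisons within brain, with bars for the standard error and 3 libraries in each group. Filled symbols passed an adjusted p of 0.001. Myt1l lies above 0 in each comparison, at 1.36, 1.98 and 0.54, Myt1 lies near -1 in both comparisons with total RNA, and the open symbols of Myt1 (-0.09) and St18 (0.02) are near 0 between the translatomes.

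In the brain EC translatome Myt1l had some of the highest RPKM values of the library. The values are totals per gene, and how the reads lie along Myt1l was not analysed here. Replicates 1, 2 and 3 had 593, 766 and 374 RPKM, from 254940, 280758 and 148639 reads. By RPKM these values placed Myt1l at rank 33, 22 and 65 of all rows, with 0.408%, 0.525% and 0.257% of the counted reads. All 3 libraries were above every other library of the series.

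The mean of Myt1l in the brain EC translatome was 578 ± 197 RPKM (SD, n = 3). It was 5.57 times the mean of the brain translatome, 14.1 times that of the brain transcriptome and 3.96 times that of the Emx1 translatome. Without replicate 1, 2 or 3 in turn, the log2 ratio to the brain translatome was between 2.22 and 2.71 instead of 2.48.

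The spread between the replicates was wide for a transcript of this abundance. Myt1l was chosen with this spread in view, so its place among other rows is a description and not a test. The highest replicate was 2.05 times the lowest, although each library had at least 148639 reads of Myt1l. On the log2 scale the SD of Myt1l was 0.52, and the median SD was 0.06 over the 592 rows with a mean of at least 100 RPKM in this group. One of these rows, Ptgds, which was picked after its values were seen and encodes a prostaglandin D synthase, had a larger SD (0.75, from 415, 164 and 174 RPKM). Myt1l was highest in replicate 2 and lowest in replicate 3, whereas Ptgds was highest in replicate 1. In the other brain translatomes the SD of Myt1l was smaller, at 0.17 in the brain translatome (12 of 760 rows larger) and 0.06 in the Emx1 translatome (136 of 757 rows larger).

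The other members did not share the high level. Myt1 had 7.72, 8.16 and 9.09 RPKM in the brain EC translatome, with a mean of 8.32 ± 0.696 RPKM (SD, n = 3). St18 had 2.00, 1.82 and 2.11 RPKM, with a mean of 1.98 ± 0.146 RPKM (SD, n = 3). The mean of Myt1 was 2.52 times lower than in the brain translatome and 5.22 times lower than in the brain transcriptome. For St18 these figures were 4.63 and 6.32. All replicates of both members were below every library of the other brain groups, and replicate 2, the highest for Myt1l, was the lowest for St18.

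Neural transcripts were present in the brain EC libraries at reduced levels. The summed RPKM of 15 neuron markers was 881, 724 and 850 in replicates 1, 2 and 3, and 3373 to 3412 in the brain translatome. Against the brain translatome 12 of the 15 markers were lower and 2 were higher, where 46.2% of 19103 rows were called in either direction. The 2 that were higher were the neurofilaments Nefm (log2 fold change 1.03) and Nefl (0.71), and Tubb3, the neuronal tubulin, fell from 1273 to 290 RPKM. Proneural factors were lower in 9 of 9 cases, and the median log2 fold change was -1.99. Their sum was 115, 93.1 and 89.3 RPKM against 541 to 570 RPKM in the brain translatome. Neural progenitor markers were lower in 6 of 7 cases, and the exception was Nes, the intermediate filament nestin, which was at 373 RPKM in the brain EC translatome and 68.6 RPKM in the brain translatome.

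Dorsal telencephalon markers were lower in 7 of 7 cases (median -1.74) and ventral telencephalon markers in 8 of 8 (median -1.90). Of the oligodendrocyte lineage markers 4 of 6 were lower and 1 was higher, of the microglia markers 2 of 6 were lower and none was higher, and of the pericyte markers 4 of 6 were lower and 2 were higher. Of the erythroid markers 1 of 4 tested was higher, and of the nephron and stroma markers 4 of 8 were higher. Among partners of the family, the corepressors Hdac1 (0.89) and Rcor1 (0.88) were higher and Hdac2 (-0.73) and Kdm1a (-0.70) were lower. Of the Notch genes 5 of 11 were higher, led by the ligand Jag1 (2.65), the receptor Notch1 (1.55) and the effectors Hes1 (1.52) and Hey1 (1.43), and 3 were lower, Dll3 (-1.65), Hes5 (-1.63) and Dll1 (-0.91).

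The level of Myt1l was also set against the neuron markers of the same library. Myt1l came to 1.34% to 1.44% of the summed RPKM of the 15 markers in the brain transcriptome, 2.78% to 3.50% in the brain translatome and 4.55% to 5.21% in the Emx1 translatome. In the brain EC translatome it came to 67.3%, 106% and 44.0% in replicates 1, 2 and 3. The share of Myt1 was 1.40% to 1.59% in the brain transcriptome. It was 0.57% to 0.65% in the brain translatome and 0.58% to 0.70% in the Emx1 translatome. In the brain EC libraries the share of Myt1 was 0.876%, 1.13% and 1.07%. These values were above every brain and Emx1 translatome library and below every brain transcriptome library. The share of St18 was 0.40% to 0.49%, 0.26% to 0.28% and 0.27% to 0.32% in the transcriptome, brain and Emx1 translatomes. It was 0.227%, 0.252% and 0.249% in the brain EC translatome. The marker sums of replicates 1, 2 and 3 were 881, 724 and 850 RPKM, and Myt1l was at 593, 766 and 374 RPKM. The part that RNA of neural cells has in the brain EC values of Myt1, Myt1l and St18 was not tested.

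**Figure D3:**
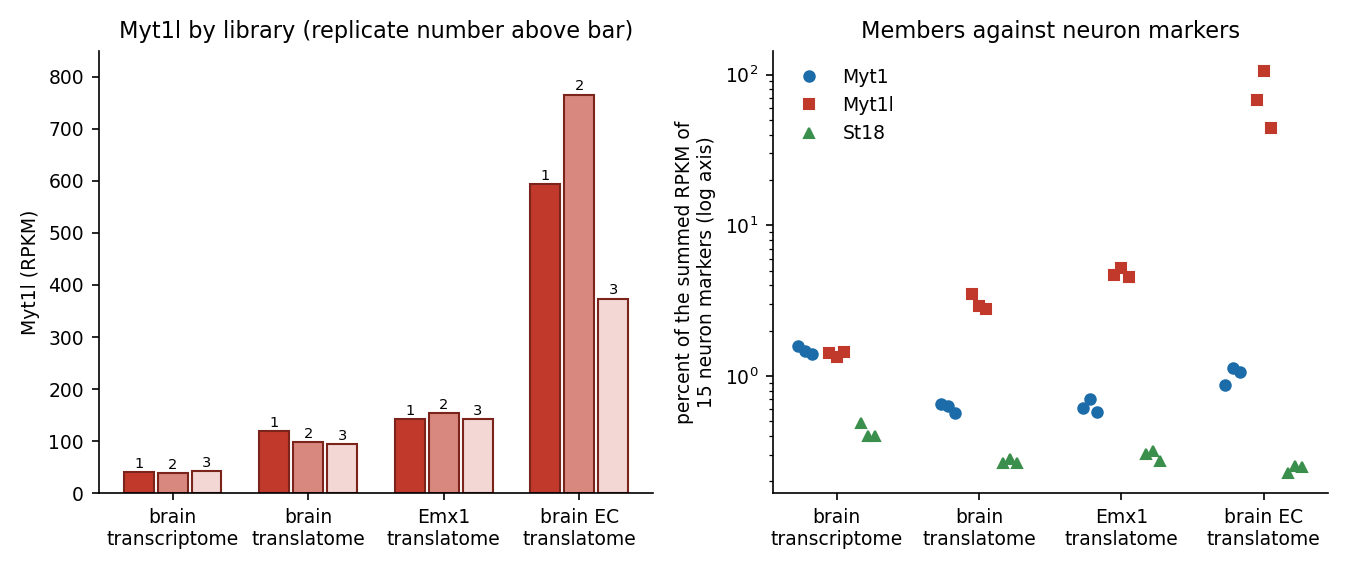
Left, RPKM of Myt1l in each library of the brain groups, with the replicate number above each bar. Right, the RPKM of Myt1 (circles), Myt1l (squares) and St18 (triangles) in percent of the summed RPKM of 15 neuron markers of the same library, on a log axis. Myt1l is at 593, 766 and 374 RPKM in the brain EC translatome, and its share of the neuron marker sum rises to between 44.0% and 106% there, while St18 stays under 1% in all 12 libraries.

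The endothelial markers differed in size from Myt1l. Their ratio of mean RPKM in the brain EC over the brain translatome was 3.67 to 4.56 on the log2 scale, so that all 15 lay above the 2.48 of Myt1l. In the neuron, proneural, progenitor and telencephalon lists, no gene lay above Myt1l, and the nearest was Nes at 2.44. The ratio of Myt1l was 2.22 to 2.71 with 1 library left out, a range that holds the value of Nes. Unlike Myt1l, Nes was also called higher in the kidney EC translatome than in the kidney translatome. It was at 142 and 53.7 RPKM there, with a log2 fold change of 1.75. The summed RPKM of the 15 endothelial markers was 5115 to 5252 in the brain EC replicates.

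**Figure D4:**
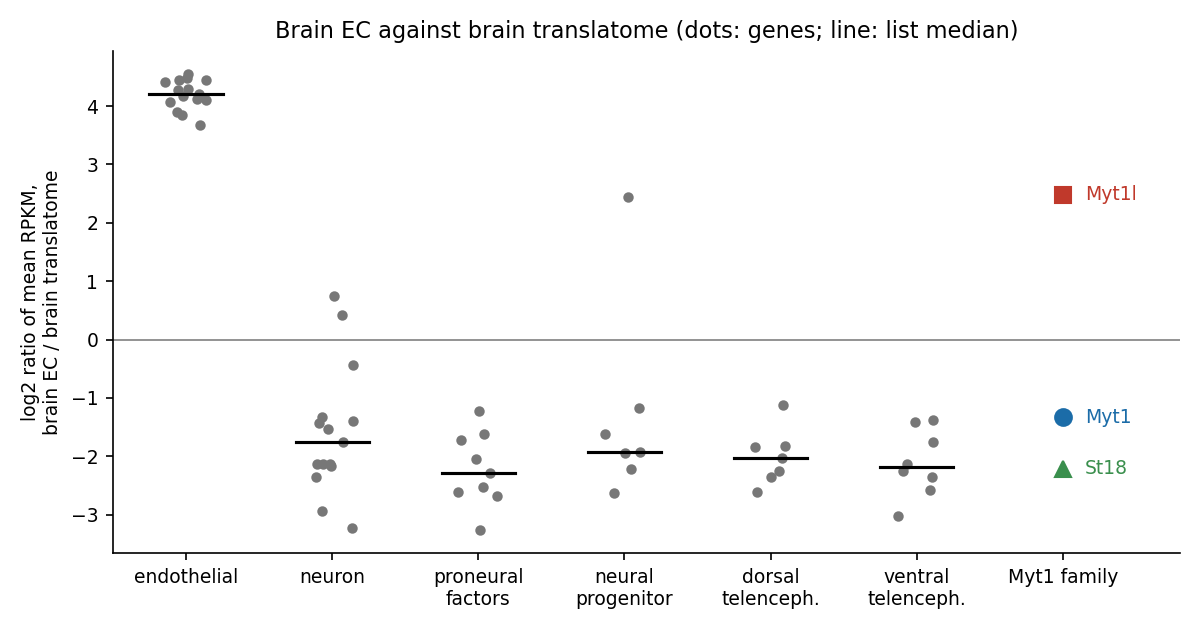
Log2 ratio of the mean RPKM in the brain EC translatome to that in the brain translatome, with 1 grey dot for each gene of 6 lists, a line at the list median and coloured symbols for the family. The endothelial markers have a median of 4.21 and the neuron markers one of -1.76. Myt1l (2.48) lies between them, and Myt1 (-1.33) and St18 (-2.21) lie among the neural genes.

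In kidney all 3 members were close to absent. In the kidney transcriptome Myt1 had 4, 4 and 2 reads, Myt1l had 0, 1 and 2 reads and St18 had 3, 1 and 0 reads, out of 31343319 to 51331105 reads per library. In the kidney EC translatome Myt1 had 1, 3 and 4 reads, Myt1l 4, 8 and 5 reads and St18 2, 0 and 3 reads. In the kidney translatome Myt1 had 8, 19 and 1 reads, Myt1l 9, 20 and 1 reads and St18 3, 8 and 0 reads. The highest value in kidney was 0.158 RPKM, that of Myt1 in kidney translatome 2. A count of 0 allows up to 3 reads in that library, and intervals below cover counting error only.

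The organs were compared by the ratio of reads after scaling for depth. In total RNA Myt1 was 3176 times higher in brain than in kidney, with an exact 95% counting interval from 1727 to 6623. For Myt1l the ratio was 13370 (4575 to 64850), with 3 reads in all kidney transcriptome libraries, and for St18 it was 2443 (954 to 8968). In ribosome-bound RNA the ratios were 319 for Myt1 (220 to 480), 1960 for Myt1l (1373 to 2905) and 380 for St18 (212 to 761). All 3 members were called in the edgeR test of brain against kidney, in total RNA (edgeR adjusted p from 5.71e-14 to 6.31e-12, with 27.2% of 19841 rows called higher) and in ribosome-bound RNA (edgeR adjusted p from 6.47e-14 to 1.69e-12, with 27.2% of 19241 rows called higher).

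Between the endothelial translatomes the ratio of brain to kidney was 30750 for Myt1l, with a counting interval from 19210 to 52790. For Myt1 it was 722, with an interval from 366 to 1672. For St18 it was 301, with an interval from 129 to 928. These values were not tested. The high Myt1l of the brain EC translatome had no counterpart in the kidney EC translatome, where its 17 reads in all were fewer than the 30 of the kidney translatome.

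Within kidney the few reads did not separate ribosome-bound from total RNA by the test used above. The log2 fold changes were 2.24 for Myt1 (standard error 0.78, edgeR adjusted p = 0.0344), 3.91 for Myt1l (1.04, edgeR adjusted p = 0.00923) and 2.15 for St18 (1.09, edgeR adjusted p = 0.132). None of the 3 passed 0.001, where 30.7% of 19336 rows did, and the replicates of the groups overlapped. With the tissue sample as a block, Myt1 (2.25, edgeR adjusted p = 9.11e-04) and Myt1l (3.93, edgeR adjusted p = 2.44e-06) passed and St18 (2.21, edgeR adjusted p = 5.62e-02) did not. The block raised the number of rows called from 5929 to 9496.

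Kidney translatome 1 and 2, which hold most of the reads, shared a run with brain transcriptome 2 and 3, and kidney translatome 3, with 1, 1 and 0 reads of the members, shared a run with the kidney transcriptome. The latter run holds 1 translatome library, and with 0 or 1 reads of a member in it no direction can be read within the run. The sum of 15 neuron markers was 43.5, 49.4 and 36.0 RPKM in kidney translatome 1, 2 and 3 and 34.7 to 39.9 RPKM in the kidney transcriptome. The sum of the 9 proneural factors was 1.32, 1.98 and 0.594 RPKM in kidney translatome 1, 2 and 3 and 0.298 to 0.619 RPKM in the kidney transcriptome. The part of the run in the kidney reads was not tested.

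The kidney EC translatome was not called apart from the kidney translatome for any member, where 31.7% of 18940 rows were called. The log2 fold changes were -2.13 for Myt1 (edgeR adjusted p = 0.0574), -1.16 for Myt1l (edgeR adjusted p = 0.221) and -1.47 for St18 (edgeR adjusted p = 0.279).

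Ordered by mean RPKM, Myt1 and St18 had the same sequence of brain groups, from the transcriptome over the brain and Emx1 translatomes down to the brain EC translatome. The brain and Emx1 translatomes overlapped for both members, and the other neighbours among the brain groups did not overlap. Myt1l had the reverse sequence, from the brain EC translatome over the Emx1 translatome and the brain translatome down to the transcriptome, with no overlap between neighbours. The kidney groups came last for every member, and most of them overlapped with each other at these counts.

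Likeness between rows was measured as Pearson's r of log2(RPKM + 1) over the 21 libraries, among 14557 rows with a mean of at least 1 RPKM in a group. The libraries share their organs and runs, so that r is high for any gene that separates brain from kidney. Between the members r was 0.983 for Myt1 and St18, 0.848 for Myt1 and Myt1l and 0.776 for Myt1l and St18. The rows most like Myt1 were Disp2 (0.998), Ttll7 (0.997), Slitrk3 (0.996), Shisa7 (0.996) and Atp2b3 (0.996). Among those most like St18 were St8sia3 (0.998), Dner (0.997), Slc17a6 (0.997), a vesicular glutamate transporter, and Acsl6 (0.997).

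The rows most like Myt1l were Akap6 (r = 0.993), a kinase anchoring protein, Srcin1 (0.990), Tnik (0.989), Fam163a (0.983) and Ppm1l (0.980). Akap6 was at 114, 119 and 99.6 RPKM in the brain EC translatome, 5.21 times its mean in the brain translatome, and at 0.458 RPKM in the kidney EC translatome. Srcin1 was at 97.5, 116 and 70.3 RPKM in the brain EC translatome and Tnik at 118, 106 and 87.6 RPKM. Fam163a was at 1.832, 2.479 and 2.347 RPKM and Ppm1l at 16.75, 17.88 and 17.75 RPKM. Akap6 and Srcin1 had the order of replicates of Myt1l, and Tnik, Fam163a and Ppm1l did not. The rows were picked by r with these libraries included, which favours a shared order. The brain EC means of Srcin1, Tnik, Fam163a and Ppm1l were 2.27, 2.53, 1.91 and 1.18 times those of the brain translatome. With 0.1 instead of 1 added to the RPKM, 3 of these 5 rows were again among the 5 most alike, as were 2 of 5 for Myt1 and 3 of 5 for St18.

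**Figure D5:**
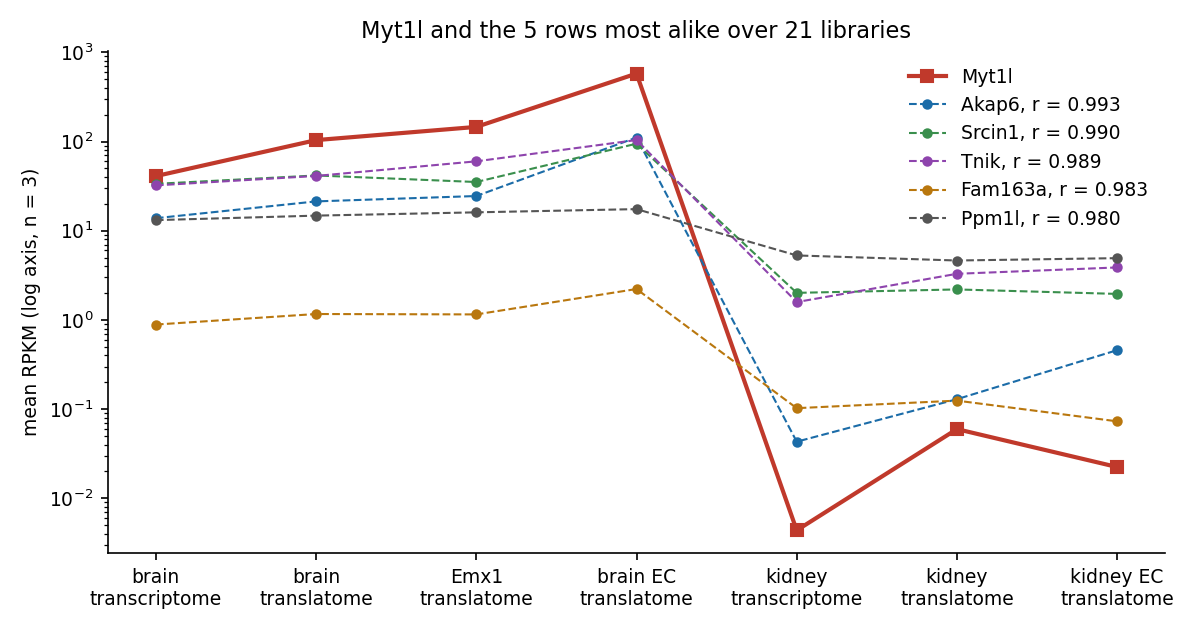
Mean RPKM of Myt1l (squares, solid line) and of the 5 rows most like it (circles, dashed lines) in the 7 groups, on a log axis, with 3 libraries in each group and r over the 21 libraries in the legend. Lines join the groups for reading only. All 6 rows have their highest mean in the brain EC translatome, and Myt1l has the largest difference between brain and kidney. The rows were picked by r with the brain EC libraries included, which favours rows high there.

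The neighbours of the members on the chromosome did not follow them as a group. Pxdn, which encodes the matrix enzyme peroxidasin and starts 14.4 kb after the end of Myt1l on the same strand, was at 73.5, 74.7 and 75.6 RPKM in the brain EC translatome, 5.37 times its mean in the brain translatome. Unlike Myt1l, it was lower in the brain translatome (13.9 RPKM) than in the brain transcriptome (35.2 RPKM), it was at 136 RPKM in the kidney EC translatome, and its brain EC replicates were close together. Further along the chromosome, Sntg2 had 1.12 RPKM in the brain EC translatome. Before Myt1l, the nearest row is Tssc1 at a distance of 658.5 kb (17.2 RPKM in the brain EC translatome and 28.5 in the brain translatome), followed by Trappc12 and Adi1. An antisense gene inside Myt1l, C630031E19Rik, had 43 reads in all 21 libraries, and the libraries do not mark strand. Next to Myt1, Oprl1 went from 25.2 RPKM in the brain translatome to 8.16 RPKM in the brain EC translatome, and Pcmtd2 was at 11.6 and 10.7 RPKM. Next to St18, Rb1cc1 was at 9.46 and 8.35 RPKM and Pcmtd1 at 6.16 and 6.01 RPKM in the same groups.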

How the data were processed

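RNA of 21 samples was sequenced with a kit that does not mark strand. The deposited counts are reads per gene: the authors mapped reads with RUM to GRCm38 (mm10) and counted them with rpkmforgenes on UCSC refGene. The deposited RPKM values come from the same program, scaled by transcript length and mapped reads. Tested comparisons used edgeR 4.0.16 in R 4.3.3 (TMM, glmQLFit, glmQLFTest) on raw counts, each fitted on its 6 samples over all rows with at least 1 count. The two-sided p-values were corrected after Benjamini and Hochberg and called under 0.001. Standard errors are log2 fold changes over the root of F. The code was checked on simulated counts. DESeq2 1.42.0, its size factors, no TMM factors, a filter of 10 counts in 3 samples, the block, 1 fit of 21 samples and leaving out libraries were alternatives. Depth was 21760652 to 79231692 reads.

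Members and gene lists were chosen with earlier results of these data known. Named genes are the members, the genes of 13 lists, the 5 rows most like each member and the 3 annotated neighbours on each side (GENCODE). For St18, no promoter sequence was used here. Sequencing runs and tissue samples come from the study's sample sheet. Libraries with the same number in a transcriptome and a translatome share a tissue sample, and their deviations from the group means correlated (r = 0.39 to 0.647 in brain, 0.529 to 0.617 in kidney, over 11841 rows). Replicates are separate biological samples by the study's account, and no files held identical values. Values of a few named genes are not reported here.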

Additional observations from a re-analysis of the deposited data

How the results depend on the processing

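The differences between brain and kidney and those of Myt1 and Myt1l between brain translatome and brain transcriptome kept their direction and their call under DESeq2, its size factors, total counts, the filter, the block, 1 fit of 21 libraries and each library left out. Of 126 log2 fold changes of members under alternatives other than leaving out a library, 117 kept both. In 1 fit of all 21 libraries St18 lost its call in brain translatome against transcriptome (-0.42) and in Emx1 translatome against brain transcriptome (-0.40). Myt1l lost it there in Emx1 against brain translatome (0.54). This fit holds the brain EC libraries, by which the members were chosen. St18 in Emx1 translatome against brain transcriptome also missed the threshold with the filter (-0.32), and without single libraries its value was -0.35 to -0.22. Between kidney translatome and transcriptome, the replicate block gave 2.25 for Myt1 and 3.93 for Myt1l, both then called, with 9496 rows called instead of 5929, and it changed no other call of a member. Within a run, the kidney values of Myt1 (-0.77) and St18 (-3.37) rest on 1 and 0 reads in 1 translatome library and give no direction. With total counts, St18 in Emx1 against brain translatome was -0.027 instead of 0.024. Where other groups share replicate numbers, the mean r was lower (0.033 to 0.17). Single pairs differed, with r of 0.516, -0.129 and 0.123 for replicates 1, 2 and 3 of the brain and kidney transcriptomes. The Emx1 and brain translatomes came from embryos of different genotypes, so that a shared number marks no shared tissue sample there. The block gave 3132 called rows instead of 4191 in Emx1 against brain translatome. The cause of these changes was not tested.

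Depth-scaled counts with TMM factors in place of RPKM raised the brain EC values of all 3 members. The log2 ratios of Myt1, Myt1l and St18 were then -1.05, 2.76 and -1.91 against the brain translatome, -2.08, 4.09 and -2.33 against the transcriptome, and -0.96, 2.21 and -1.93 against the Emx1 translatome, all with the same direction. Against kidney EC translatome, 0.1 RPKM added to each mean gave 6.19 for Myt1, 12.20 for Myt1l and 4.28 for St18, and St18 was 7.58 to 8.97 without 1 library. With 0 to 20 reads of a member per kidney library, depth limits every kidney value of the family.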

Other observations

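Myt1l was searched for company by its order of levels, with limits chosen after its values were seen. Rows were kept with at least 5 RPKM in the brain EC translatome, at least 4 times the mean of the brain translatome, which in turn was at least 2 times that of the brain transcriptome. This held for 80 of 23827 rows, and 5 of them were under 1 RPKM in the kidney EC translatome. These were Myt1l, the forkhead factor Foxf2, Wfdc1, the AP-1 family factor Batf and Fbp1, which encodes fructose bisphosphatase. Foxf2 was at 168 RPKM in the brain EC translatome and 0.978 RPKM in the Emx1 translatome. In the Emx1 translatome Wfdc1, Batf and Fbp1 were each under 0.1 RPKM, while Myt1l was at 146 RPKM. Among these 5 rows, Myt1l was thus the one with a high level in the neural lineage.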
